A study of Mus musculus with 36 samples.

Results

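Folate in the liver carries single carbon units between enzymes, and 10 genes that load, release or store those units were followed here in 5 mouse lines used as models of neural tube defects and in 4 groups of wild type mice. The genes are Aldh1l1, Aldh1l2 and Ftcd (formyl and formimino groups), Gldc, Gcsh and Amt (glycine cleavage), Dmgdh and Sardh (oxidation of dimethylglycine and sarcosine) and Fpgs and Ggh (folate storage). They were chosen by name, as every probe set that the array's probe table gives to a listed gene. Of the 10 genes, 9 had a probe set, 11 probe sets in all, among 45101 probe sets and 18193 gene symbols on the array. Aldh1l1 and Sardh had 2 probe sets each. Amt was not analysed here. All 11 probe sets passed the filter on low signal, and where a gene had several, that with the highest mean was used in the tests, which covered 13188 genes.

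RNA came from the livers of 36 female mice aged 6 to 8 weeks and fasted for 4 to 5 hours, with 1 array per mouse and 4 mice in each of 9 groups. The mutant groups were heterozygotes for Pax3Sp2H (Pax3), Lrp6Cd (Cd-Het), Apobtm1Unc (Apob) and Vangl2Lp (Lp-Het), and curly tail mice (Ct), which come from a random bred closed colony and are all taken to be ct/ct. Their controls were C57BL/6J mice (B6, the control of both Pax3 and Apob), wild type mice of the Cd line (Cd-WT), CBA/CaJ mice (CBA, the control of Ct) and wild type mice of the Lp line (Lp-WT). For the response to dietary folic acid, the labels mark Pax3 and Cd-Het as responsive and Apob, Ct and Lp-Het as resistant. Since Ct is a colony of its own and CBA an inbred strain, an effect of ct and a difference between stocks cannot be told apart. Pax3 and Apob were set against B6 mice, not wild types of their own lines, and the labels do not give their background strain. An effect of either allele and a difference between stocks can thus not be told apart there.

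Values are MAS5 signals, scaled by the authors to the same trimmed mean of 500 on each array. The hepatocyte markers Alb, Ttr, Apoa1, Tat and Cps1 were high on all 36 arrays, with Alb between 34620 and 92450. The GAPDH control ratio (3' over 5' signal), which rises as RNA degrades, was 0.729 to 0.956 on 34 arrays, 52.5 on CBA replicate 4 and 1.72 on Ct replicate 3. Both stand apart from the other arrays, so differences that rest on Ct or CBA were computed with all 36 arrays and again with the other 34.

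Folate is active as tetrahydrofolate. One-carbon units enter it from serine, glycine, histidine, dimethylglycine and sarcosine, leave it for purines, thymidylate and methionine, or are burnt to carbon dioxide. A chain of glutamates keeps the molecule inside the cell. Liver is rich in this chemistry and is the main store of folate. In mice, loss of Gldc or of Amt is known to cause neural tube defects, which gives these genes their interest in such lines.

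In none of the 5 mutant lines did any of the 9 measured genes pass the test against the line's own control. Over the 45 tests (9 genes in 5 lines), limma's adjusted p passed the 0.05 threshold in 0 tests with 36 arrays and in 0 with 34. With 36 arrays the unadjusted p was under 0.05 in 2 of the 45 tests, Gldc in Lp-Het (7.07% of all genes there) and Fpgs in Ct (24.1%), and in none in Pax3 (5.32% of all genes), Cd-Het (2.09%) or Apob (10.9%). With 34 arrays it was again 2 of 45, Gldc in Lp-Het (11.6% of all genes) and Ftcd in Apob (15.8%), and in none in Pax3 (8.83%), Cd-Het (3.22%) or Ct (14%), where the p of Fpgs was 0.901. The share of all 13188 genes called was 0% in Pax3, 0% in Cd-Het, 0.538% in Apob, 6.65% in Ct and 0.0303% in Lp-Het, so no calls among 9 genes is near the background in each line. With 34 arrays these shares were 0%, 0%, 2.46%, 1.79% and 0.212% in the same order of lines. In 0 of the 45 tests did the mutant arrays lie wholly above or wholly below the control arrays, which 5.38% of all genes did in Pax3, 3.07% in Cd-Het, 9.39% in Apob, 6.92% in Ct and 5.72% in Lp-Het. Log2 differences, mutant minus control, ran from -0.86 (Gldc in Lp-Het) to 0.71 (Fpgs in Ct), where 1 stands for a 2-fold change, and 43 of 45 lay within 0.5 of 0. The 95% interval lay within a 2-fold change either way in 42 of 45 tests, and in 44 with 34 arrays, so in most tests a change past 2-fold lies outside the interval while smaller ones may lie inside it.

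**Figure D1:**
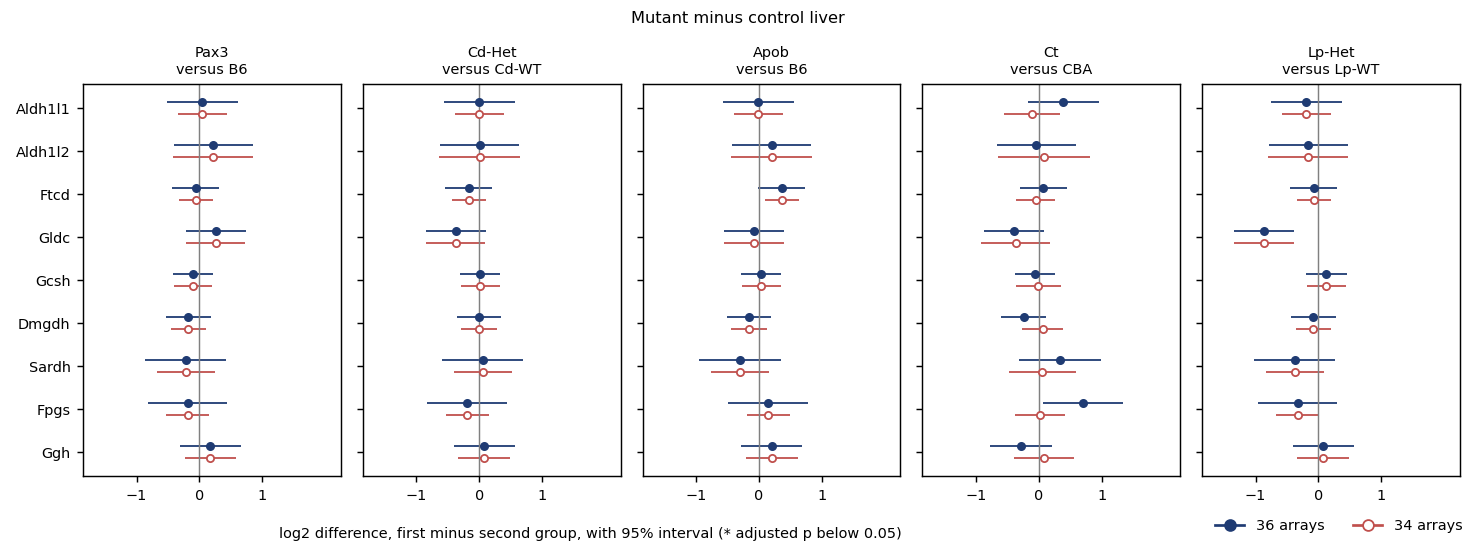
Log2 difference of each measured gene, mutant minus control, in the 5 lines (x axis), with 95% intervals from the fit to 36 arrays (filled) and to 34 arrays (open). Gldc in Lp-Het lies farthest below 0, and Fpgs in Ct lies farthest above 0 with 36 arrays but at 0.02 with 34.

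The median log2 difference of the 9 was -0.06 in Pax3 (0.01 over all genes), 0.00 in Cd-Het (0.00), 0.04 in Apob (0.02), -0.04 in Ct (0.01) and -0.16 in Lp-Het (-0.03). With 34 arrays the Ct median was 0.02 (-0.03 over all genes). Pax3 and Apob share the B6 arrays, so their differences are not independent of each other. A test of differences among the 5 mutant effects (moderated F) called 0 of the 9 genes, against 2.46% of all genes, and with 34 arrays 0, against 4.06%. With 36 arrays the unadjusted p of that test was under 0.05 for 1 of the 9, Gldc (0.0371), against 17% of all genes. With 34 arrays it was 0.0358 for Gldc and 0.0193 for Ftcd, 2 of the 9 against 19.6% of all genes, with adjusted p of 0.217 and 0.162. The mean effect of the 2 responsive lines minus that of the 3 resistant ones called 0 of the 9 genes, against 0.144% of all genes, and 0 with 34 arrays, against 0.447%. Its unadjusted p was under 0.05 for 0 of the 9, against 10.9% of all genes. Its largest value was Gldc's, 0.39 ± 0.19 (SE; adjusted p = 0.459, and 0.38 and 0.396 with 34 arrays).

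Between wild type groups 2 tests were called: Ggh was higher in CBA than in B6 livers, and Ftcd was higher in Cd-WT than in CBA livers, though the second call was lost with 34 arrays. Of 54 tests (9 genes in 6 pairs of wild type groups), 2 were called with 36 arrays and 6 with 34. Over all genes the share called ran by pair from 2.08% to 7.73% with 36 arrays and from 3.41% to 7.77% with 34. The 2 of 54 with 36 arrays are thus near the background. The 6 calls with 34 arrays all had B6 as the lower group: Ggh in CBA, Cd-WT and Lp-WT, Gldc in Cd-WT and Lp-WT, and Ftcd in Cd-WT. In the test over the 4 wild type groups at once (moderated F), Ggh (adjusted p = 0.00666) and Ftcd (0.0478) were called with 36 arrays, 2 of 9 against 10.7% of all genes. With 34 arrays Ggh (0.0109), Ftcd (0.0196) and Gldc (0.0402) were called, 3 of 9 against 14.6%. In the pairs without a call, Cd-WT against Lp-WT (2.43% of all genes called, and 5.44% with 34 arrays) and Lp-WT against CBA (4.61% and 3.41%), 0 of 9 were called with either set of arrays. The 3 pairs that hold B6 share its arrays, and so do not count as 3 separate findings.

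**Figure D2:**
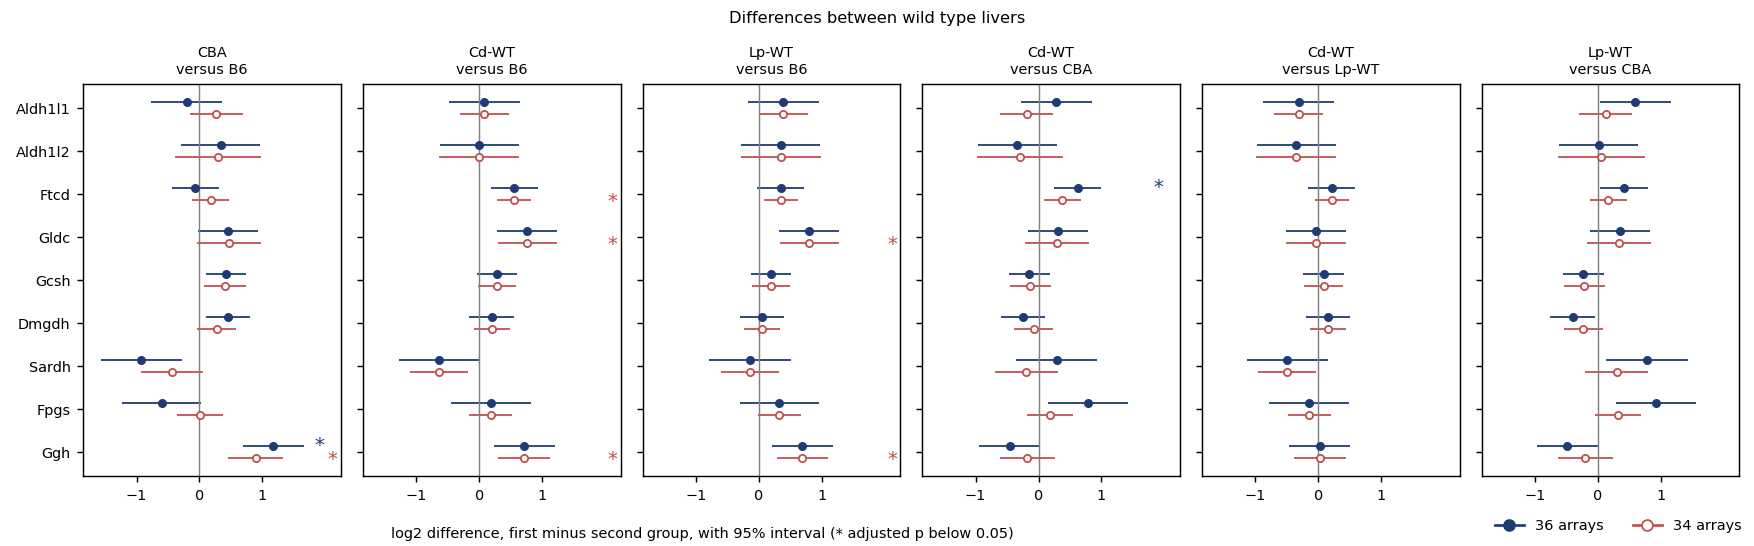
Log2 difference of each measured gene, first minus second group, for the 6 pairs of wild type groups (x axis), with 95% intervals from 36 arrays (filled) and 34 arrays (open) and a star for adjusted p below 0.05. Ggh lies above 0 in each of the 3 pairs with B6, while the starred Ftcd value of Cd-WT against CBA is smaller with 34 arrays.

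Ggh encodes gamma-glutamyl hydrolase, the lysosomal enzyme that trims the glutamate chain of stored folate so that it can leave the cell. Its signal was 1137, 1663, 1425 and 3090 on the 4 CBA arrays, the last being the array with the GAPDH ratio of 52.5. On the Cd-WT arrays it was 1109, 1349, 1504 and 1014, and on the Lp-WT arrays 1616, 1012, 1143 and 1138. On the B6 arrays it was 779, 737, 613 and 847. Every array of the other 3 wild type groups lay above every B6 array.

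For CBA against B6 the log2 difference of Ggh was 1.18 ± 0.24 (SE; adjusted p = 0.00138) with 36 arrays and 0.89 ± 0.22 (adjusted p = 0.00875) with 34. It was 1 call among 9 genes, against 7.73% of all genes called in this pair and 6.1% with 34 arrays. Leaving out any 1 array of either group kept the call, with differences from 0.89 to 1.37. A fit to the 8 arrays of these 2 groups alone lost it (1.18 ± 0.30, adjusted p = 0.0926). For Cd-WT against B6 the difference was 0.72, with an adjusted p of 0.0943 in the fit to 36 arrays and 0.0227 in that to 34. For Lp-WT against B6 it was 0.69, with an adjusted p of 0.145 and 0.0381. As neither of these pairs holds CBA replicate 4 or Ct replicate 3, the difference is the same in both fits and only the shared estimate of spread, and with it the SE (0.24 against 0.20), moved.

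In each mutant line the Ggh values overlapped those of its control. The Pax3 arrays read 835, 879, 926 and 720, and the Apob arrays 1320, 708, 826 and 688, against the B6 values above. Cd-Het arrays read 1394, 1083, 1727 and 1094, Ct arrays 1026, 1912, 1174 and 1644, and Lp-Het arrays 1142, 1377, 1105 and 1518. Of the 12 arrays of Pax3, Apob and B6, 11 lay below the lowest of the other 24 arrays (1012), the exception being Apob replicate 1. This split by control strain was looked for after the values were seen, and is given with no test. For no other member did more than 4 of those 12 arrays (4 for Gcsh) lie below all of the others. From low to high, the group means of Ggh were 744 ± 98.5 (SD, n = 4 here and below) in B6, 840 ± 88.3 in Pax3, 886 ± 296 in Apob, 1227 ± 266 in Lp-WT, 1244 ± 223 in Cd-WT, 1286 ± 196 in Lp-Het, 1325 ± 305 in Cd-Het, 1439 ± 411 in Ct and 1829 ± 868 in CBA. The CBA mean was 1408 ± 264 without replicate 4 (n = 3). Each group in that order overlapped the next.

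Genes of other cell types differed between the same groups. Of 10 markers of Kupffer cells, the resident macrophages of the liver, 6 were called lower in CBA than in B6 livers with 36 arrays. With 34 arrays 7 were. The shares of all genes called in this pair were 7.73% and 6.1%. The summed signal of the 10 ran from 16300 to 23240 on CBA arrays and from 29910 to 42890 on B6 arrays. The median difference of the 10 was -1.46, and -0.80 with 34 arrays. Cd5l, a secreted protein of these cells, was at -1.73 (-1.57 with 34 arrays). Marco, their scavenger receptor, averaged 14.6 in CBA, below the signal of the filter (61.7), against 198 in B6, so no fold is given for it. Of 2 genes of the exocrine pancreas tested, Cela1 was higher in CBA than in B6 livers (0.93, and 1.20 with 34 arrays), and the lists of stellate, endothelial, bile duct, lymphoid and red cells held no call in this pair. With 34 arrays 5 of the 10 Kupffer cell markers were called lower in Lp-WT than in B6 livers (5.42% of all genes called). In Cd-WT against B6 it was 1, C1qa (7.77%). With 36 arrays 0 of the 10 were called in either pair (2.08% and 3.89% of all genes). In whole liver RNA, fewer cells of a type and less RNA per cell cannot be told apart. The part of cell composition in the Ggh difference was not tested. The genes whose pattern over the 34 arrays was most like that of Ggh were Gng10 (Pearson r = 0.915), Psmb1 (0.867) and Srp14 (0.86), a description over arrays that fall into the same 9 groups and share one scaling method.

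Fpgs encodes folylpolyglutamate synthase, which adds the glutamates that Ggh removes. Its signal was 2707, 2230, 3080 and 2560 on the Ct arrays, against 2412, 2277, 2676 and 435 on the CBA arrays. Without CBA replicate 4, all 3 CBA arrays lay within the range of Ct. The log2 difference of Ct minus CBA was accordingly 0.71 ± 0.31 (adjusted p = 0.153) with 36 arrays and 0.02 ± 0.19 (adjusted p = 0.978) with 34. Group means elsewhere ran from 2170 ± 429 in Pax3 to 3077 ± 330 in Lp-WT, with 2449 ± 257 in B6, 2464 ± 465 in Lp-Het, 2468 ± 539 in Cd-Het, 2755 ± 626 in Apob and 2785 ± 299 in Cd-WT. Lp-Het minus Lp-WT was -0.33 ± 0.31 (adjusted p = 0.881). Fpgs passed no test in any comparison with 36 or with 34 arrays. The largest of its wild type differences, 0.93 for Lp-WT against CBA (adjusted p = 0.0809), was 0.32 with 34 arrays. It passed the test where CBA replicate 1 (1.12, adjusted p = 0.0318), 2 (1.10, 0.0453) or 3 (1.17, 0.0256) was left out and replicate 4 kept, as did Cd-WT against CBA without replicate 3 (1.03, 0.0495, against 0.79 and 0.142 with 36 arrays).

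Gldc encodes the glycine decarboxylase (P protein) of the mitochondrial glycine cleavage system, which splits glycine and passes one carbon to tetrahydrofolate. Ftcd encodes formiminotransferase cyclodeaminase, which moves the formimino group of histidine breakdown onto tetrahydrofolate. Both were higher in Cd-WT than in B6 livers with 34 arrays, so their sequences just before the gene's start are shown. They come from the RefSeq table of GRCm38.p6, an assembly of the C57BL/6J strain. Ggh, called in the same pair and fit, had no sequence there to show. The windows are the 250 bases before the first base of each gene, 5′ to 3′ on the strand of the gene, at chr10:76575398-76575647 on the plus strand for Ftcd and at chr19:30175442-30175691 on the minus strand for Gldc. Capitals mark matches to the promoter motifs named below.

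Ftcd: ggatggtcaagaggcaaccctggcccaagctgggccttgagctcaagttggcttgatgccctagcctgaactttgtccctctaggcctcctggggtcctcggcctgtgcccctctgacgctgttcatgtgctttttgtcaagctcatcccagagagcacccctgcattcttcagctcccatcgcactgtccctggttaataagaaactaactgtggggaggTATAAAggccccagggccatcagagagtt

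Gldc: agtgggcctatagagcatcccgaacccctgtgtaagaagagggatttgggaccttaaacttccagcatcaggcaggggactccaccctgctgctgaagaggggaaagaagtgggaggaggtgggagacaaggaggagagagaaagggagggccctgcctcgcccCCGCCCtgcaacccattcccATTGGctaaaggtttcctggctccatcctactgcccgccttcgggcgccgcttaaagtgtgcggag

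The motifs, searched on both strands, were the TATA box, spelled TATAAA, the CCAAT box, the GC box, spelled GGGCGG, and the E-box, spelled CACGTG. The Ftcd window holds 1 TATA box, which starts at position -29, counted from 0 at the first base of the gene, and no other of these motifs. A TATA box so spelled occurs in 12.4% of the 32851 windows of this length in the table. The Gldc window holds 1 GC box and 1 CCAAT box, both on the opposite strand, whose matches begin at positions -86 and -66 of the printed strand. The GC box occurs in 32.7% and the CCAAT box in 33.8% of all windows, and the E-box in 6.02%. No matches overlap in either window. Of the 10 genes, 8 had a window in the table, all but Aldh1l2 and Ggh. Among these 8 the TATA box was found in that of Ftcd alone. A match says only that these letters are present, in the reference strain.

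Ftcd signal was 10611, 10518, 12034 and 14038 on the Cd-WT arrays and 9552, 10097, 10082 and 10787 on the Lp-WT arrays. It was 10135, 7747, 9371 and 4496 on the CBA arrays and 8808, 7691, 9412 and 6303 on the B6 arrays. Every Cd-WT array lay above every B6 and every CBA array, and every Lp-WT array lay above every B6 array. For Cd-WT against CBA the log2 difference was 0.63 ± 0.18 (adjusted p = 0.0407), 1 call among 9 genes against 5.07% of all genes. In the same pair 2 of 10 Kupffer cell markers, Marco and Cd5l, and 1 of 6 stellate cell markers, Dcn, were higher in Cd-WT than in CBA, and 1 of 5 endothelial markers, Lyve1, was lower. All 4 were called with 36 and with 34 arrays, and their part in the Ftcd value was not tested. With 34 arrays the Ftcd difference was 0.38 ± 0.14 (adjusted p = 0.14), 0 calls among 9 against 5.27%. The call was also lost without any 1 of the Cd-WT arrays or without CBA replicate 2, with adjusted p from 0.0509 to 0.141, and without CBA replicate 4 alone (0.202). For Cd-WT against B6 the difference was 0.56, with SE 0.18 and adjusted p = 0.0904 in the fit to 36 arrays and SE 0.13 and adjusted p = 0.00683 in that to 34. Lp-WT minus B6 was 0.35 (adjusted p = 0.436, and 0.137 with 34 arrays).

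In Apob mice Ftcd read 11611, 8903, 11715 and 9078, against the B6 values just given. The upper 2 of these arrays lay above all B6 arrays and the lower 2 within their range. The log2 difference was 0.36, with an adjusted p of 0.48 with 36 arrays and 0.147 with 34, and its 95% interval ran from -0.01 to 0.74 with 36 arrays and from 0.09 to 0.63 with 34 (unadjusted p = 0.0103). The Pax3 arrays read 7967, 8214, 6916 and 7492, within the range of B6. Cd-Het arrays read 10863, 10367, 9465 and 11227, overlapping Cd-WT. Lp-Het arrays read 10144, 9779, 9754 and 8849, overlapping Lp-WT, and Ct arrays 10752, 8442, 6152 and 7299, overlapping CBA (0.07, and -0.05 with 34 arrays). From low to high the group means were 7647 ± 572 in Pax3, 7937 ± 2501 in CBA (9084 ± 1220 without replicate 4), 8053 ± 1368 in B6, 8161 ± 1964 in Ct, 9632 ± 552 in Lp-Het, 10130 ± 507 in Lp-WT, 10330 ± 1545 in Apob, 10480 ± 763 in Cd-Het and 11800 ± 1645 in Cd-WT. The genes most like Ftcd over the 34 arrays were Car3 (Pearson r = 0.779), Clu (0.776) and Car1 (0.761).

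Gldc signal was 2884, 2266, 3087 and 1616 on the Lp-Het arrays, against 3022, 6200, 5878 and 3294 on the Lp-WT arrays. Of the 4 Lp-Het arrays, only replicate 3 reached into the Lp-WT range, whose arrays split into a low and a high pair. The log2 difference of -0.86 ± 0.23 had the smallest p of the 45 mutant tests (unadjusted p = 0.000819), and missed the threshold after adjustment over all genes (0.251, and 0.121 with 34 arrays). Leaving out 1 array at a time moved it between -1.04 and -0.68, and no setting gave a call. Its 95% interval ran from -1.34 to -0.39. In the other lines the difference was -0.39 in Ct (-0.36 with 34 arrays), -0.37 in Cd-Het, -0.08 in Apob and 0.26 in Pax3, with adjusted p of 0.307 or more.

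Lp-WT and Cd-WT had the highest mean Gldc signals among wild types. Cd-WT arrays read 4028, 3710, 4297 and 5086, and CBA arrays 3633, 2968, 3826 and 3310, while B6 arrays read 3172, 2128, 2257 and 2518. All Cd-WT arrays lay above all B6 arrays, and the lowest Lp-WT array lay inside the B6 range. Cd-WT minus B6 was 0.77 (adjusted p = 0.0593 with 36 arrays and 0.0365 with 34), and Lp-WT minus B6 was 0.81 (0.0645 and 0.0368). Gldc in Lp-WT against B6 was also called without Lp-WT replicate 1 (0.98, adjusted p = 0.0296) or replicate 4 (0.94, 0.0406), the 2 lower arrays of that group. Ggh, Gldc and Ftcd thus made 3 calls among 9 genes for Cd-WT against B6 with 34 arrays, against 7.77% of all genes, and 0 with 36 arrays, against 3.89%. With 36 arrays the unadjusted p was under 0.05 for 3 of the 9, against 14.8% of all genes. For Lp-WT against B6 the counts were 2 of 9 against 5.42% with 34 arrays and 0 of 9 against 2.08% with 36, where the unadjusted p was under 0.05 for 2, against 13.2% of all genes. In Cd-WT against B6, 3 of 52 markers of liver and other cell types were called with 36 arrays (and C1qa with 34), all lower in Cd-WT: 1 of 5 endothelial genes (Lyve1, -1.35), 1 of 5 periportal genes (Cyp2f2, -0.77) and 1 of 8 pericentral genes (Lgr5, -0.90). These lists as a whole did not run one way, with 4 of 5, 2 of 5 and 4 of 8 genes above 0 and medians of 0.13, -0.39 and -0.05. The part of these genes in the member values was not tested. In the mutants, Pax3 arrays read 4109, 2442, 2474 and 3169, Cd-Het arrays 3401, 4370, 2447 and 3156, Apob arrays 1936, 2645, 2655 and 2245, and Ct arrays 3904, 2308, 2375 and 2132. Group means from low to high were 2370 ± 347 in Apob, 2463 ± 664 in Lp-Het, 2518 ± 465 in B6, 2680 ± 823 in Ct, 3049 ± 783 in Pax3, 3343 ± 795 in Cd-Het, 3434 ± 377 in CBA, 4280 ± 588 in Cd-WT and 4599 ± 1672 in Lp-WT, each group overlapping the next.

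**Figure D3:**
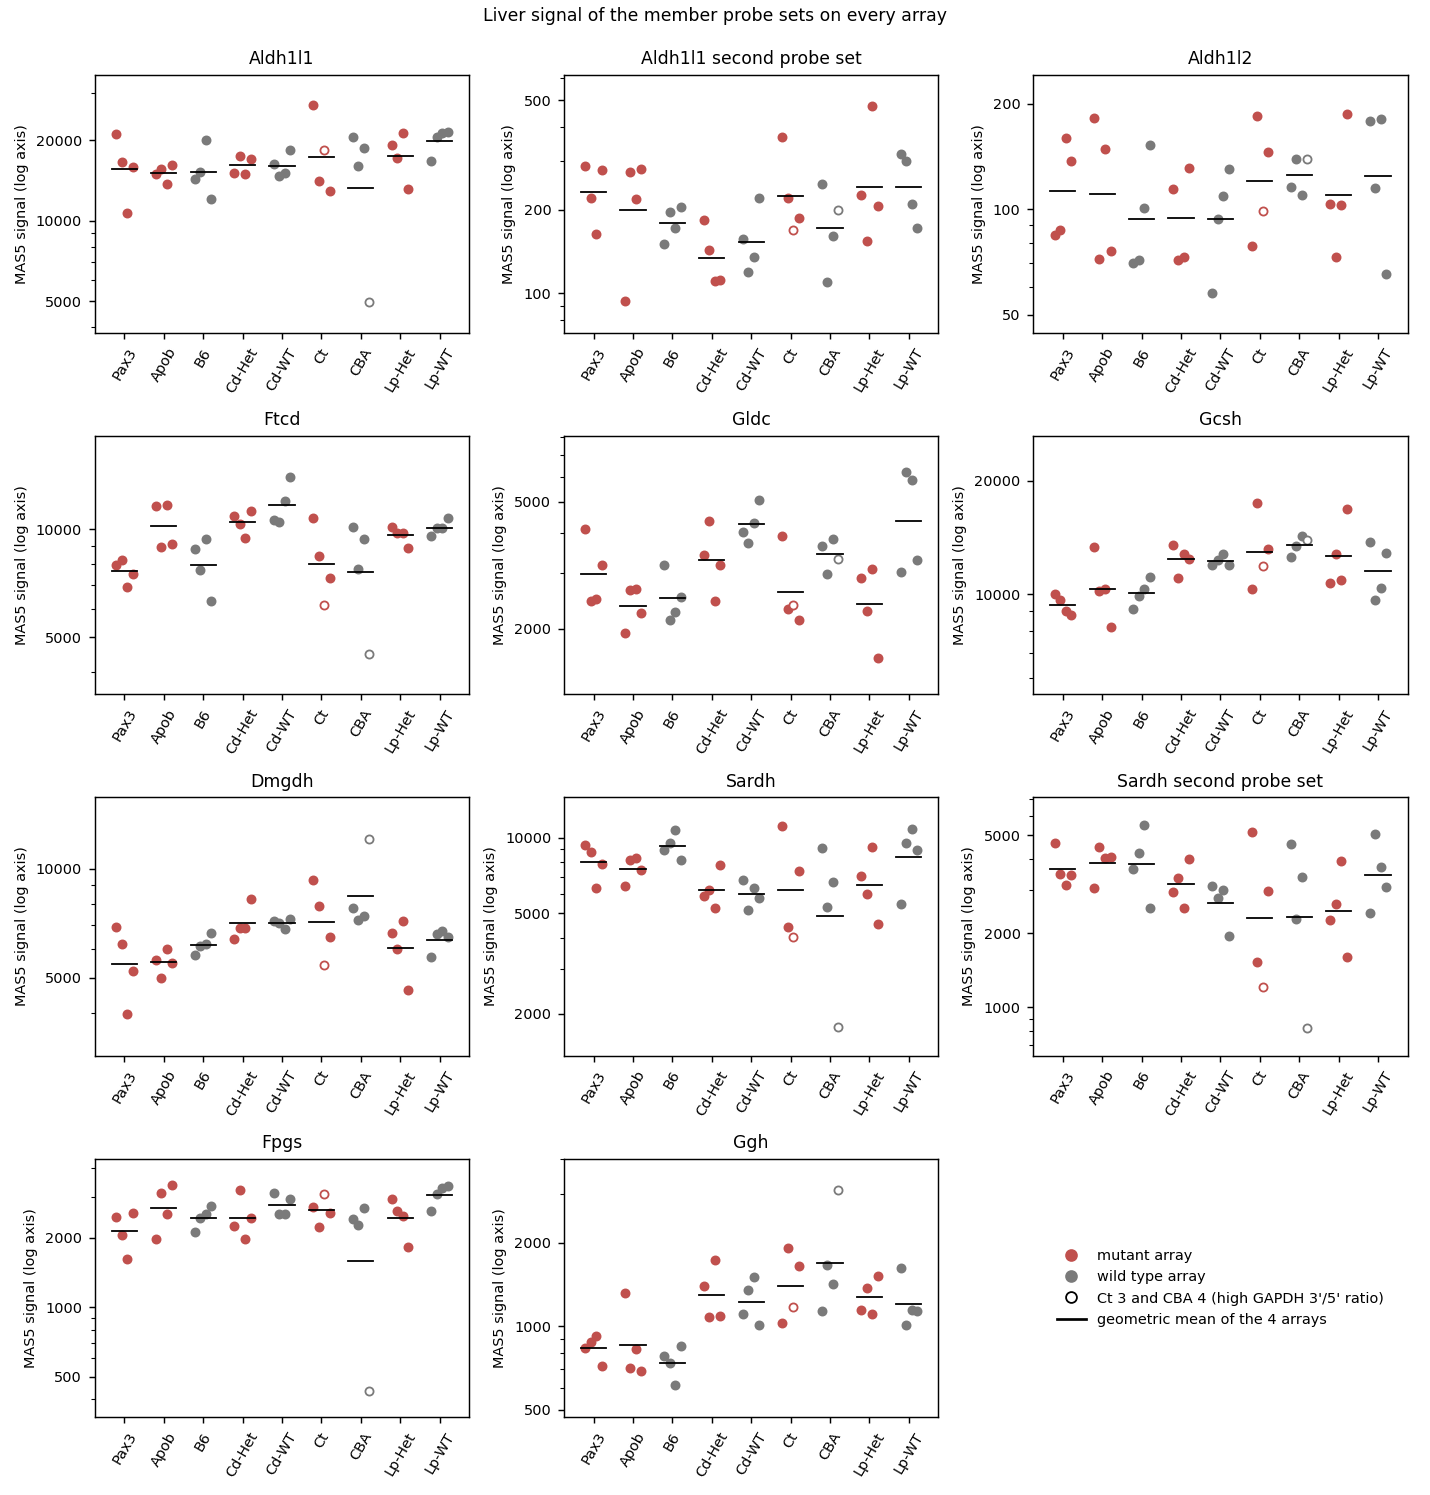
MAS5 signal (log axis) of the 11 probe sets on every array, by group, with mutants (red) left of their wild type control (grey), open symbols for Ct replicate 3 and CBA replicate 4, and bars at the geometric mean of 4 arrays. Ggh is low in Pax3, Apob and B6 alike, Gldc is low in Lp-Het beside a widely spread Lp-WT, and CBA replicate 4 lies far below its group for Aldh1l1, Sardh and Fpgs.

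Gcsh encodes the H protein, whose lipoyl arm carries the aminomethyl group left by Gldc to the aminomethyltransferase that Amt encodes. Its signal was 12557, 13451, 14249 and 13950 on CBA arrays, 11952, 12322, 12749 and 11979 on Cd-WT arrays, and 9141, 9889, 10294 and 11075 on B6 arrays. Both groups lay wholly above B6, yet neither difference passed the test: 0.43 ± 0.16 for CBA (adjusted p = 0.0919, and 0.141 with 34 arrays) and 0.28 ± 0.16 for Cd-WT (0.427 and 0.293). Group means ran from 9385 ± 550 in Pax3 to 13550 ± 740 in CBA, with 10500 ± 2116 in Apob, 11670 ± 1967 in Lp-WT, 12430 ± 1020 in Cd-Het, 12820 ± 2858 in Lp-Het and 13210 ± 3068 in Ct between them. Mutant minus control differences of Gcsh ran from -0.10 in Pax3 to 0.13 in Lp-Het. While Gldc was at -0.86 in Lp-Het, its partner Gcsh was therefore at 0.13 ± 0.16.

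Dmgdh and Sardh encode the mitochondrial flavoproteins that turn dimethylglycine into sarcosine and sarcosine into glycine, handing the released carbon to tetrahydrofolate. Dmgdh read 7780, 7223, 7423 and 12123 on CBA arrays and 7162, 7105, 6815 and 7254 on Cd-WT arrays, against 5764, 6109, 6188 and 6632 on B6 arrays. CBA and Cd-WT lay wholly above B6, by 0.45 ± 0.17 (adjusted p = 0.106) and 0.20 ± 0.17 (0.674). With 34 arrays the CBA difference was 0.28 (0.334). Its means ran from 5525 ± 420 in Apob and 5576 ± 1279 in Pax3, through 6111 ± 1108 in Lp-Het, 6382 ± 464 in Lp-WT, 7100 ± 801 in Cd-Het and 7284 ± 1695 in Ct, to 8637 ± 2335 in CBA (7476 ± 282 without replicate 4). The mutant differences lay between -0.24 (Ct, and 0.06 with 34 arrays) and 0.00 (Cd-Het).

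Sardh ran the other way in the wild types. Its signal was 6822, 5160, 6327 and 5737 on Cd-WT arrays and 9142, 5285, 6648 and 1768 on CBA arrays, against 8960, 9571, 10717 and 8125 on B6 arrays. All Cd-WT arrays and 3 of the 4 CBA arrays lay below all B6 arrays. Cd-WT minus B6 was -0.63 on the log2 scale, with an adjusted p of 0.352 in the fit to 36 arrays, 0.083 with 34, and 0.00448 in a fit to these 2 groups alone. CBA minus B6 was -0.92 ± 0.32 (adjusted p = 0.0691) with 36 arrays and -0.44 (0.344) with 34. It passed the test without CBA replicate 1 (-1.23, 0.012) or replicate 3 (-1.07, 0.0437), settings that keep CBA replicate 4. Likewise, Lp-WT minus CBA was 0.78 (adjusted p = 0.152) and passed without CBA replicate 1 (1.08, 0.0325), but was 0.30 (0.751) without replicate 4. A second Sardh probe set gave -0.52 for Cd-WT (adjusted p = 0.578) and -0.71 for CBA (0.264), or -0.22 with 34 arrays, and its Cd-WT and B6 arrays overlapped. Group means of the first probe set were 6284 ± 1085 in Cd-Het, 6685 ± 1947 in Lp-Het, 6736 ± 3297 in Ct, 7581 ± 835 in Apob, 8072 ± 1325 in Pax3, 8693 ± 2304 in Lp-WT and 9343 ± 1091 in B6. Mutant differences of the first probe set ran from -0.38 in Lp-Het to 0.34 in Ct (0.06 with 34 arrays). Those of the second ran from -0.47 in Lp-Het to 0.25 in Cd-Het, with -0.02 in Ct (-0.20 with 34 arrays).

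Over the 9 genes, 6 of 9 had Cd-WT and B6 arrays that did not overlap, against 17.3% of all genes: Ftcd, Gldc, Gcsh, Dmgdh and Ggh higher in Cd-WT, and Sardh lower. For CBA and B6 it was 3 of 9 against 12.7%, namely Gcsh, Dmgdh and Ggh, and for Lp-WT and B6 it was 2 of 9 against 12.1%, Ftcd and Ggh. Without B6 it was 1 of 9 in each pair, against 12% for Cd-WT and CBA (Ftcd), 13.9% for Cd-WT and Lp-WT (Dmgdh) and 9.14% for Lp-WT and CBA (Dmgdh). The median log2 difference of the 9 was 0.20 for Cd-WT against B6 (0.00 over all genes), 0.34 for CBA against B6 (-0.01; 0.28 with 34 arrays) and 0.35 for Lp-WT against B6 (0.04), 3 pairs that share the B6 arrays. Without B6 it was 0.35 for Lp-WT against CBA (0.05 over all genes) and 0.28 for Cd-WT against CBA (-0.01), but 0.12 and -0.13 with 34 arrays, and it was -0.04 for Cd-WT against Lp-WT (-0.04).

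Aldh1l1 encodes the cytosolic formyltetrahydrofolate dehydrogenase, which releases the formyl group as carbon dioxide, and is a major folate-binding protein of liver. Its signal was 27135, 14129, 18344 and 12918 on Ct arrays, against 20655, 15980, 18683 and 4953 on CBA arrays, where the last is again the array with the GAPDH ratio of 52.5. The difference was 0.39 ± 0.28 (adjusted p = 0.398) with 36 arrays and -0.11 ± 0.22 (0.891) with 34, so its sign turned. In the other lines it lay between -0.19 (Lp-Het) and 0.04 (Pax3). Group means were 15070 ± 7010 in CBA (18440 ± 2347 without replicate 4), 15120 ± 1039 in Apob, 15460 ± 3384 in B6, 16100 ± 4296 in Pax3, 16140 ± 1606 in Cd-WT, 16170 ± 1259 in Cd-Het, 17730 ± 3526 in Lp-Het, 18130 ± 6437 in Ct and 20030 ± 2186 in Lp-WT. Its second probe set read between 93.3 and 476 over the 36 arrays and passed no test in any comparison. For Ct minus CBA this probe set gave 0.35, and 0.54 with 34 arrays, so with 34 arrays the probe sets differed in sign. Aldh1l2, the mitochondrial counterpart, was measured near the lower end of the scale, at 57.6 to 187 over all arrays where the filter stood at 61.7. Its group means lay between 97.6 ± 30.5 (Cd-WT) and 135 ± 55.8 (Lp-WT), all groups overlapped in every comparison, and no test was passed. The 95% interval of Aldh1l2 in Pax3 ran from -0.41 to 0.84.

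**Figure D4:**
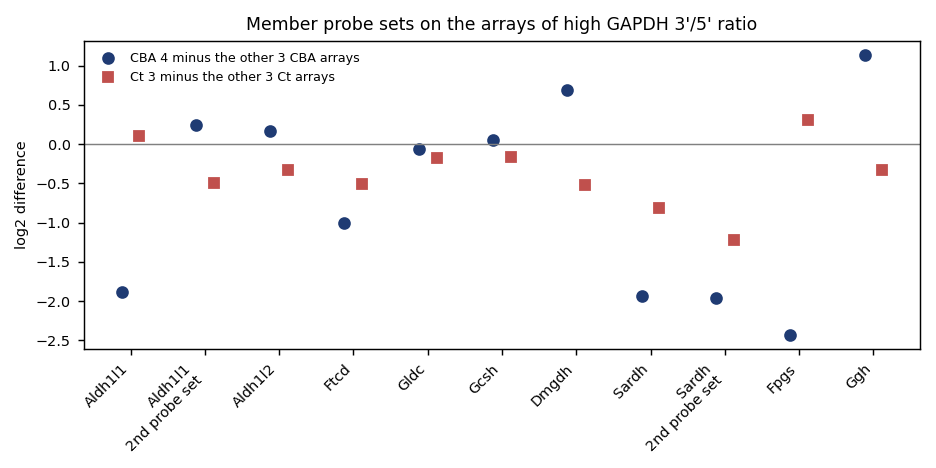
Log2 signal of CBA replicate 4 (circles) and Ct replicate 3 (squares) minus the mean of the other 3 arrays of the same group, for each of the 11 probe sets (y axis, log2 difference). CBA replicate 4 lies 1.88 or more below its group for Aldh1l1, both Sardh probe sets and Fpgs, and 1.14 above it for Ggh.

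On the 2 arrays of high GAPDH ratio the distance from the rest of the group varied by member. On CBA replicate 4, 4 of the 9 genes lay below the other 3 CBA arrays (Fpgs at -2.43, Sardh at -1.94, Aldh1l1 at -1.88 and Ftcd at -1.0) and 2 above them (Ggh at 1.14 and Dmgdh at 0.70). Gldc (-0.06), Gcsh (0.06) and Aldh1l2 (0.17) lay within. Over all genes tested, 32.5% differed by more than 1 on the log2 scale from the other CBA arrays. On Ct replicate 3, 3 genes lay below the other Ct arrays (Sardh at -0.82, Dmgdh at -0.52 and Ftcd at -0.50) and 1 above (Fpgs at 0.30). None of the 9 differed by more than 1 there, against 14.7% of all genes. By chance, 1 given array of 4 is the lowest or highest of its group in 2 of 4 cases. The counts of genes below and above are near that share, so they alone set neither array apart.

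Neighbouring steps of folate and glycine metabolism were followed in 6 lists, 40 of whose 47 genes were tested. Against their controls 0 of the 40 were called in Pax3 and in Cd-Het, where 0% of all genes were. In Apob 1 was called, against 0.538% of all genes with 36 arrays and 2.46% with 34. The count with 34 arrays is near that share. It was Agxt2, a mitochondrial transaminase that uses alanine and glyoxylate to make glycine. Agxt2 was higher, at 4379 against 2080 in B6 (log2 1.04 ± 0.18, adjusted p = 0.00223, and 0.000318 with 34 arrays). In Ct, 3 were called higher and 1 lower with 36 arrays (6.65% of all genes called) and 0 with 34 (1.79%). The 3 were the folate receptor Folr2 (1.03, and 0.38 with 34 arrays), the glycine methyltransferase Gnmt (0.59 and 0.48) and the glycine acyltransferase Glyat (0.60 and 0.59), and the 1 was the mitochondrial formate producer Mthfd1l (-1.03 and -0.78). Beside Folr2, 6 of 10 Kupffer cell markers were called higher in Ct than in CBA with 36 arrays (median 1.34) and 0 with 34 (0.29). The mean log2 signal of these markers was 13.16 on Ct replicate 3 and 10.31 to 10.99 on the other Ct arrays, against 9.12 on CBA replicate 4 and 10.18 to 10.61 on the other CBA arrays. Their part in the Folr2 value was not tested. In Lp-Het 0 were called with 36 arrays (0.0303% of all genes called) and 1 higher with 34 (0.212%). That gene was Slc25a32, which carries folate into mitochondria (0.97, adjusted p = 0.059 with 36 arrays and 0.00783 with 34).

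In the wild types, Folr2, a folate receptor of macrophages, was far lower in CBA than in B6 livers, at a mean signal of 116 against 1024 (log2 -2.93 ± 0.28, adjusted p = 3.69e-09, and -2.81 with 34 arrays), beside the lower Kupffer cell markers given above. It was also higher in Cd-WT (2.52, and 2.40 with 34 arrays) and in Lp-WT (2.33 and 2.21) than in CBA. Of the histidine enzymes that act before Ftcd, Amdhd1 was lower in CBA than in B6 livers (-0.67, adjusted p = 0.0243, and 0.0402 with 34 arrays) and Uroc1 higher (0.65, adjusted p = 0.0425, and 0.159 with 34), while the third, Hal, passed no test there. Amdhd1 was also higher in Lp-WT than in CBA (0.72, and 0.64 with 34 arrays). Among the partners of Gldc and Gcsh, 0 of 4 were called in any pair with 36 arrays, and Dld, which reoxidises the H protein, was higher in Cd-WT than in Lp-WT with 34 (0.54, adjusted p = 0.041).

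Of the enzymes that make and use serine and glycine, Psph, which makes serine, was higher in Cd-WT than in B6 (1.26 ± 0.27, adjusted p = 0.00291), at a mean of 638 against 254. Psph was also higher in Cd-WT than in CBA (0.93), a call lost with 34 arrays (0.54, adjusted p = 0.147). Agxt2 was higher in CBA (0.94, and 0.82 with 34 arrays) and in Lp-WT (0.79) than in B6, and lower in Cd-WT than in CBA (-0.67, adjusted p = 0.0197, and 0.0596 with 34 arrays). Bhmt2, a homocysteine methyltransferase, was higher in CBA than in B6 (0.57, adjusted p = 0.022, and 0.103 with 34 arrays). Gatm, which uses glycine to make the precursor of creatine, was lower in CBA than in B6 (-0.88, adjusted p = 0.0215, and 0.0692 with 34 arrays), and higher in Cd-WT than in CBA (1.18, and 0.95 with 34 arrays) and than in Lp-WT (1.01). Agxt, another transaminase that makes glycine from glyoxylate, was lower in Cd-WT than in Lp-WT (-0.69). Slc25a32 was lower in Lp-WT than in B6 (-0.91, adjusted p = 0.00785) and than in CBA (-0.78, adjusted p = 0.0174, and 0.0613 with 34 arrays). In the folate cycle, of 12 enzymes tested, Atic of purine synthesis was lower in CBA than in B6 (-0.73) and higher in Cd-WT than in CBA (0.72), both lost with 34 arrays (adjusted p = 0.0806 and 0.0924). Mtfmt, which formylates the initiator tRNA of mitochondria, was lower in Cd-WT than in CBA (-0.51, adjusted p = 0.0262, and 0.0293 with 34 arrays). Mthfd1l was lower in Lp-WT than in CBA (-0.98, adjusted p = 0.0465, and 0.174 with 34 arrays). Of the 40 genes, 3 were called higher and 4 lower in CBA than in B6 (7.73% of all genes called), 1 higher and 0 lower in Cd-WT than in B6 (3.89%), and 1 higher and 1 lower in Lp-WT than in B6 (2.08%). With 34 arrays the counts in these 3 pairs were 3 and 2 (6.1%), 1 and 1 (7.77%), and 3 and 3 (5.42%). In the pairs without B6, 4 were called higher and 2 lower in Cd-WT than in CBA (5.07%), 1 and 1 in Cd-WT than in Lp-WT (2.43%), and 2 and 2 in Lp-WT than in CBA (4.61%). With 34 arrays these were 2 and 2 (5.27%), 2 and 1 (5.44%), and 2 and 1 (3.41%).

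Some genes of these lists were called with 34 arrays alone. Mtrr, which keeps methionine synthase active, was higher in CBA than in B6 (0.84, adjusted p = 0.00722, and 0.50 and 0.19 with 36 arrays) and lower in Lp-WT than in CBA (-0.93, and -0.59 with 36 arrays). Gart of purine synthesis was lower in Cd-WT than in CBA (-0.63, and -0.45 with 36 arrays). Psph was higher in CBA (0.72, and 0.32 with 36 arrays) and in Lp-WT (0.65) than in B6. Slc25a32 was lower in Cd-WT than in B6 (-0.56). In Lp-WT against B6, Folr2 (-0.61) and Gatm (-0.71) were lower and Agxt higher (0.56).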

How the data were processed

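Liver RNA was hybridised to Affymetrix arrays, 1 per mouse. The deposited values are linear signal intensity per probe set, made by the authors with MAS5, per the submitters' processing notes (version not stated). Each array has a trimmed mean of 500, with 2% left out at each end, as computed here. MAS5 signal is noisy near background, and the number of arrays limits the precision. Probe sets were named from the platform's gene table: 34945 had 1 symbol, 932 several and 9160 none, and 34741 of the first were matched by Entrez ID to a RefSeq table of GRCm38.p6. Probe sets of Amt were looked for by symbol, Entrez ID and accession.

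Values were analysed as log2(signal + 23.068), the offset being the 20th percentile of signals, so differences of low genes are understated. Genes passed if their mean was above the 40th percentile (a signal of 61.7). limma 3.58.1 in R 4.3.3 (lmFit, and eBayes with an intensity trend) fitted 1 mean per group to 36 arrays, with two-sided tests, Benjamini-Hochberg adjustment within a comparison and calls below 0.05. A planned second fit left out Ct replicate 3 and CBA replicate 4. The procedure was tested on simulated data. Signals are means ± SD and log2 differences are ± SE. No 2 arrays were alike beyond a correlation of 0.9693. Likeness to a member was Pearson's r of log2 values, for members called with 36 arrays, and the 3 highest genes are named. All members are named, with the called genes of the pathway lists. Called genes of the marker lists are counted where they stand beside a member, and some are named. The members, lists and tests were chosen with earlier results of these data known. Figures were drawn with matplotlib 3.10.9.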

Additional observations from a re-analysis of the deposited data

Results flagged for a closer look

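Of 99 sets of 4 arrays (11 probe sets in 9 groups), 2 held an array whose gap to the nearest of the others, as a share of the whole range, passed Dixon's 95% critical value for 4 samples, where chance flags about 1 in 20. Gldc read 3904 on Ct replicate 1 and 2132 to 2375 on the other 3 Ct arrays (ratio 0.863). Dmgdh read 12120 on CBA replicate 4, the array with the high GAPDH ratio, and 7223 to 7780 on the other 3 CBA arrays (ratio 0.886). No member was called in the test of the 5 mutant effects.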

How the results depend on the processing

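The counts of members called were recomputed under other scalings, offsets, filters, probe set choices and fits, and 138 of 151 such counts were within 1.5 times the reported one. For each mutant against its control, the 5 mutant effects and the responsive minus resistant contrast, the count was 0 throughout. For CBA against B6 it was 0 in the fit to the compared groups alone, against 1 as reported. For Cd-WT against B6 it was 3 with 34 arrays and 4 in the fit to the compared groups alone, against 0. For Lp-WT against B6 it was 2 with 34 arrays and 1 in the fit to the compared groups alone, against 0. For Cd-WT against CBA it was 0 without a filter, without an intensity trend, with 34 arrays and in the fit to the compared groups alone, against 1. Over the 4 wild type groups it was 1 with median centring, no filter, no intensity trend or all probe sets, against 2. It was 3 there with quantile normalization, an offset of the 40th percentile, a stricter filter or 34 arrays, with Gldc called beside Ggh and Ftcd. Leaving out 1 array at a time gave 1 to 2 for CBA against B6, 0 to 1 for Lp-WT against B6, 0 to 2 for Cd-WT against CBA, 0 to 2 for Lp-WT against CBA and 1 to 4 over the 4 wild type groups. The causes were not tested. With a replicate block, Ggh stayed called for CBA against B6 and Ftcd for Cd-WT against CBA (adjusted p = 0.00278 and 0.0402), and no count of members changed. The replicate numbers gave correlations of -0.141 to 0.203 between same-numbered arrays, not over 0.1 in every pair, so the numbers were not taken to pair the samples. These are not correlations of the log2 values themselves, for which each array's median correlation with the others was 0.845 or more. As a hint from the data, 10 of 20 mutant arrays correlated best with their own number, where 1 in 4 would by chance. With 4 arrays a group, small changes could be missed, and a 95% interval without 0 was not enough for a call. Gldc in Lp-Het (interval -1.34 to -0.39) was not called, since limma's p was adjusted over all genes (0.251).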
